A study of Mus musculus with 9 samples.

Results

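Genes that encode chemokines, interleukins and related secreted signals were followed in mouse fibroblasts driven toward muscle. The set held the protein-coding genes whose symbols are Ccl, Cxcl or Il with a number (and a closing letter where there is one), together with Cx3cl1, Lif, Csf1, Csf2, Csf3, Tnf and Tslp. The rule found 82 gene records with 77 symbols among 35675 genes with a transcript in the libraries; 7 of the 82 lie on unplaced scaffolds. The rule rested on names alone and used no measured value, but it was chosen with earlier results of these data known.

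Every library was made from mouse embryonic fibroblasts, or MEFs, whose genotype was Dmdmdx. It carries a mutation in the dystrophin gene Dmd and serves as a mouse model of Duchenne muscular dystrophy. There were 3 groups of 3 libraries: MEFs given MyoD, the transcription factor that starts the muscle programme, together with small molecules named F/R/C (MyoD F/R/C); MEFs given MyoD alone (MyoD); and MEFs without treatment (MEF). The labels spell out neither the letters nor the doses and times, and do not say whether replicates came from separate cultures or embryos, so that p-values measure only the spread between libraries, which may be technical. The comparisons ask how the ligand genes stood in the cells that received MyoD with or without F/R/C. Each library held 21112071 to 24291056 estimated counts of polyadenylated RNA.

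A gene followed across libraries is given in CPM, in which counts are scaled by effective library size, and TPM, which also divides by transcript length, is used where genes are set against each other. A count of 0 allows up to 3 counts, which is 0.113 to 0.144 CPM by library, for counting error only. Differences were tested with edgeR's quasi-likelihood test in 1 fit over the 9 libraries, and a gene is called higher or lower where its p-value, adjusted by Benjamini and Hochberg over 15714 genes, is under 0.05. For 1 gene taken alone, the smallest two-sided p of an exact permutation test at this group size is 0.1.

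The labelled cell states were checked on marker genes. The summed level of 10 skeletal muscle markers was 29670 to 42050 CPM in F/R/C libraries, 819.1 to 2559 CPM in MyoD libraries and 4.629 to 494.2 CPM in MEF libraries. That of 12 fibroblast markers was 7346 to 10890 CPM with F/R/C, 15580 to 40410 CPM with MyoD and 27500 to 89580 CPM in MEF. Of the 12, 4 were called lower with F/R/C in each comparison and none higher. Their median log2 fold change was -2.12 against MEF and -1.11 against MyoD. Dcn and Thy1 were among those not called (0.15 ± 1.06 and -0.11 ± 0.85 against MEF, 2.18 ± 1.11 and 0.35 ± 0.85 against MyoD), so the list did not fall as a whole. The third MEF library and the third MyoD library stood apart from the others of their groups: the third MEF library held 494.2 CPM of muscle markers against 4.629 and 7.303 CPM in the other two, and the third MyoD library 2559 CPM against 819.1 and 936.1 CPM. Results that rest on these libraries are given with and without them. In RNA from whole cultures, fewer cells of a type and less RNA per cell cannot be told apart.

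Chemokines are small secreted or membrane-bound proteins that guide migrating cells through receptors coupled to G proteins. Most interleukins and some colony stimulating factors act through cytokine receptors that signal by JAK kinases and STAT factors or by NF-kB. Fibroblasts are a known source of many of them, among them CXCL12, which holds CXCR4-bearing stem and progenitor cells, and CSF1, the growth factor of macrophages. In regenerating muscle they draw in neutrophils and monocytes, and some, such as IL-6, LIF and IL-15, are also made by muscle cells and act on them.

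Promoters of 8 genes called with F/R/C were searched for 3 motifs, and the 4 that hold a match are shown: those of Cxcl12, Csf1 and Cxcl10, which fell, and Cxcl13, which rose, in at least 1 comparison. The other 4, of Cx3cl1, Cxcl14, Il18 and Il17d, hold none of the 3 in this window. Each sequence is the 250 bases before the gene's start in RefSeq (GRCm38.p6), 5′ to 3′ on the gene's strand. Capitals mark matches on either strand to CAGCTG, the E-box core that MyoD is known to bind, to TGACG, a core of the cAMP response element, or to the NF-kB consensus. The Cxcl12 promoter lies at chr6:117168285-117168534 on the plus strand, that of Csf1 at chr3:107760470-107760719 on the minus strand, that of Cxcl10 at chr5:92348890-92349139 on the minus strand and that of Cxcl13 at chr5:95956689-95956938 on the plus strand.
Cxcl12: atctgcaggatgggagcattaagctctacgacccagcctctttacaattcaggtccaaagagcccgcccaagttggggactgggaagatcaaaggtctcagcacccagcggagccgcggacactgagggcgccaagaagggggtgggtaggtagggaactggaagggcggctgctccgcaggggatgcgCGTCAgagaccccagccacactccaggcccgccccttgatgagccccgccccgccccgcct
Csf1: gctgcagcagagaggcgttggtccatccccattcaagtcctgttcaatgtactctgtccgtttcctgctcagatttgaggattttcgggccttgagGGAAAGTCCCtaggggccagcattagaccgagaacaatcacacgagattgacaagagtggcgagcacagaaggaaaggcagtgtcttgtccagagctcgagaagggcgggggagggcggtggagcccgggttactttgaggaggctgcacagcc
Cxcl10: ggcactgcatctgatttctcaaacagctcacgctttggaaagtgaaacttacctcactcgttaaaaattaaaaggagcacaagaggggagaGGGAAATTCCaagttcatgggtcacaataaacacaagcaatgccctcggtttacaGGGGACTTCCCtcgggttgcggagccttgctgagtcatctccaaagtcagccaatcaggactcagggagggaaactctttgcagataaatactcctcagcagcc
Cxcl13: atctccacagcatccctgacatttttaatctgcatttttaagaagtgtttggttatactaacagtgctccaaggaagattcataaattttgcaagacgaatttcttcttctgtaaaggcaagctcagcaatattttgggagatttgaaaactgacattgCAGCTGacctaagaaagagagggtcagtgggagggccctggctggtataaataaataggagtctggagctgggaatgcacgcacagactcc

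In the Cxcl12 promoter the capitals are a TGACG core, read on the other strand, at bases -61 to -57 from the start. Csf1 has an NF-kB match at -154 to -145. Cxcl10 has one at -159 to -150 and a pair that overlap, at -104 to -95 and -103 to -94. Cxcl13 has an E-box at -91 to -86. The RefSeq table held promoters for 54 of the 77 symbols, 66 promoters in all. The NF-kB match was present in 12 of the 66 (18.2%), against 7.25% of all 32817 promoters in the table; the genes were Ccl1, Ccl9, Ccl20, Csf1, Cxcl1, Cxcl2, Cxcl3, Cxcl10, Il6, Il16, Il19 and Lif. The E-box was in 9 of the 66 (13.6%), against 13% of all, and TGACG in 12 of the 66 (18.2%), against 17.7% of all. A match describes the letters in these windows and is not evidence of binding.

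The summed level of the ligand transcripts was lower in every F/R/C library than in every library of the other groups. It was 409.9, 552.2 and 210.5 TPM in F/R/C libraries, 2538, 2389 and 1226 TPM in MyoD libraries and 1927, 2873 and 2251 TPM in MEF libraries. Means were 390.9 ± 171.6 TPM with F/R/C, 2051 ± 718.3 TPM with MyoD and 2350 ± 480.8 TPM in MEF (SD, n = 3 libraries each). Cxcl12 alone made up 2.409% to 4.429% of the sum with F/R/C, against 17.66% to 48.39% with MyoD and 35.89% to 49.37% in MEF. Without Cxcl12 the sum was 201.2 to 529.9 TPM with F/R/C, 1009 to 1374 TPM with MyoD and 1184 to 1454 TPM in MEF, so that the groups with and without F/R/C still did not overlap. The ligand of highest level was Cxcl1 in 2 F/R/C libraries and Ccl27a in the other, Cxcl12 in 2 MyoD libraries and Csf1 in the third, and Cxcl12 in all 3 MEF libraries.

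**Figure D1:**
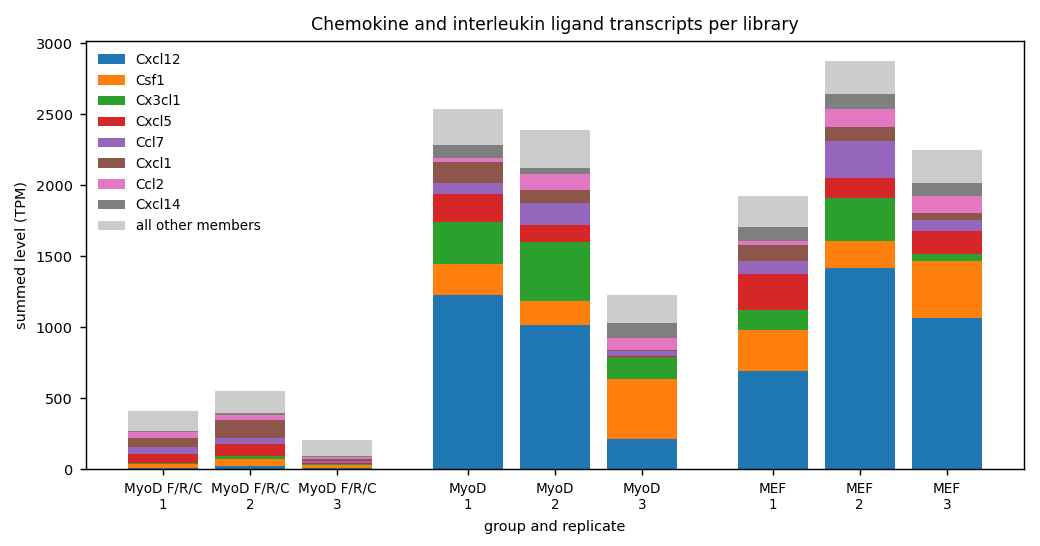
Summed level of the ligand transcripts in each library, in TPM on a linear axis from 0, stacked by gene for the 8 genes of highest mean TPM with all other ligand genes in light grey on top. The 3 MyoD F/R/C bars reach 210.5 to 552.2 TPM and the other 6 bars reach 1226 to 2873 TPM, with the Cxcl12 segment the tallest in 5 of those 6.

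Many of the ligand genes were near 0. Of the 82, 38 reached a mean of 1 TPM in at least 1 group and 15 a mean of 10 TPM. By group, 28 reached 1 TPM with F/R/C, 31 with MyoD and 32 in MEF. No group mean came to 0.5 TPM for 40, which are taken as near 0, and 19 of the 82 had 0 counts in every library. Those 19 were Ccl1, Ccl4, Ccl12, Ccl26, Ccl27b, Csf2, Il2, Il3, Il4, Il9, Il20, Il24 and Il31, with scaffold or duplicate records of Ccl19, Ccl21a, Ccl21b and Ccl27. The others near 0 were Ccl3, Ccl21c, Ccl22, Ccl24, Cxcl9, Cxcl17, Il1a, Il5, Il10, Il12b, Il13, Il17a, Il17c, Il17f, Il21, Il22, Il23a, Il27 and Tnf, with further records of Ccl21b and Ccl27. Tnf, the prototype inflammatory cytokine, had 3 counts over the F/R/C libraries, 2 over the MyoD libraries and 0 over the MEF libraries. Fewer than 10 counts in every library held for 38 of the 40, the exceptions being Cxcl9 and Il10.

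The filter on low counts passed 36 of the 82. A gene that passed only through a group where it was high had to differ, so counts over the 36 are descriptions. With F/R/C against MEF, 4 of the 36 were called higher and 8 lower (33.3% in all), against 37.6% of all genes tested (19.5% higher and 18.1% lower). With F/R/C against MyoD, 4 were called higher and 10 lower (38.9%), against 33.9% of all genes (17.8% higher and 16.1% lower; 2796 higher and 2531 lower, or 2295 higher and 3119 lower with total counts as the only scaling). That scaling moved the median log2 fold change of all genes by -0.19 in the comparison with MyoD and by -0.0847 against MEF, and left the members' counts at 4 and 8 and at 4 and 10. Libraries of the groups did not overlap for 17 of the 36 against MEF and 18 against MyoD, where the shares of all genes were 53.2% and 49.8%. The shares called were thus near those of all genes. The median log2 fold change of the 36 was -1.19 against MEF and -1.05 against MyoD, where that of all genes was -0.0434 and -0.0173. Both comparisons share the F/R/C libraries. Without the third MEF and the third MyoD libraries, 38 members were tested, 35 of them among the 36. Of the 38, 7 were called higher and 11 lower against MEF, where the shares of all genes in that fit were 20.7% and 16.9%, and 6 higher and 10 lower against MyoD, where they were 19.3% and 17.1%. The 7 include Ccl19 and Il12a, and the 6 include Il12a, which are not among the 36. Ccl19 and Il12a passed the filter of that fit only through the F/R/C libraries, so their calls are descriptions.

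**Figure D2:**
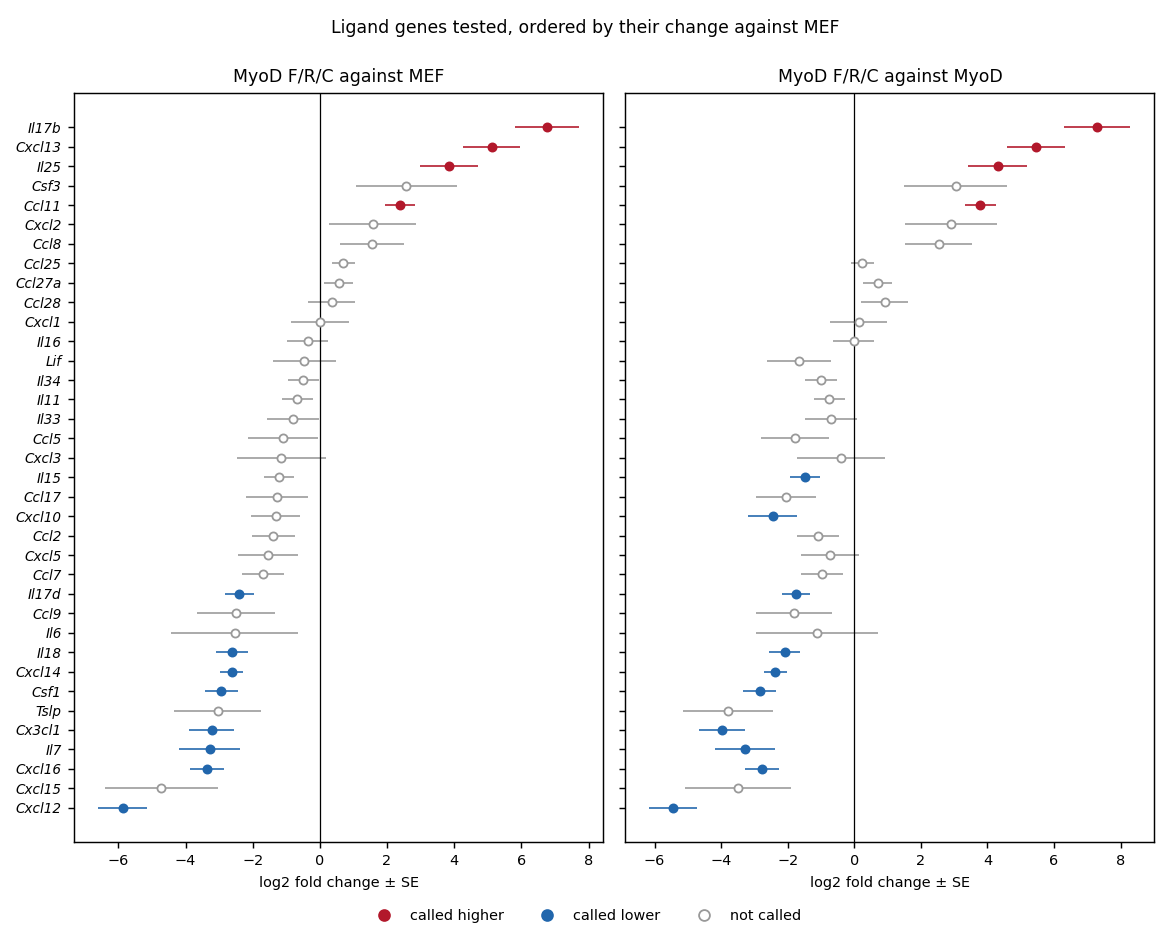
Log2 fold change ± SE of the 36 ligand genes tested, for MyoD F/R/C against MEF on the left and against MyoD on the right, in the order of the left panel. Red points are called higher, blue points lower and open points not called; Il17b, Cxcl13, Il25 and Ccl11 are the red points in both panels and Cxcl12 is the lowest point in both.

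Members of the CXC and CX3C families that attract cells through CXCR4, CX3CR1 and CXCR6, with CXCL14 beside them, fell with F/R/C. Cxcl12 (chr6:117168535-117181367, plus strand) had 13.3, 32.1 and 17.9 CPM in F/R/C libraries, 1351, 1145 and 260.1 CPM in MyoD libraries and 781.5, 1627 and 1292 CPM in MEF libraries. Every F/R/C library lay below every other, and the third MyoD library was the lowest of the rest. Its log2 fold change was -5.87 ± 0.72 against MEF (edgeR adjusted p = 0.000773), or 58.5-fold lower, and -5.45 ± 0.71 against MyoD (edgeR adjusted p = 0.0014), the lowest among the 36 in both comparisons. Most of its signal lay on the transcript Cxcl12-202 in every library, 71.76% to 84.67% with F/R/C, 74.26% to 85.72% with MyoD and 76.5% to 86.29% in MEF.

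Cx3cl1 encodes fractalkine, a chemokine made as a membrane-bound stalk that can be shed. It had 21.2, 43.0 and 20.1 CPM with F/R/C, 481.8, 574.1 and 264 CPM with MyoD and 242.1, 474.7 and 71.7 CPM in MEF. Again the F/R/C libraries were the 3 lowest, and the third library was the lowest of its group in all 3 groups. The log2 fold change was -3.23 ± 0.67 against MEF (edgeR adjusted p = 0.00649; -2.53 without the second MEF library) and -3.97 ± 0.69 against MyoD (edgeR adjusted p = 0.00408).

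Cxcl14, which attracts monocytes and dendritic cells, had 12.8, 13.9 and 16.3 CPM with F/R/C, 81.1, 36.8 and 105.6 CPM with MyoD and 85.4, 95.6 and 85.2 CPM in MEF. Its F/R/C libraries lay close together and apart from the rest, with log2 fold changes of -2.63 ± 0.35 against MEF (edgeR adjusted p = 0.00104) and -2.38 ± 0.35 against MyoD (edgeR adjusted p = 0.00209). Cxcl16, a transmembrane chemokine and the ligand of CXCR6, had 0.546, 1.28 and 0.72 CPM with F/R/C, 8.91, 5.02 and 3.56 CPM with MyoD and 9.86, 5.68 and 10.8 CPM in MEF. With F/R/C it was 10.3-fold below MEF (log2 fold change -3.37 ± 0.51, edgeR adjusted p = 0.00177) and 6.85-fold lower than with MyoD (log2 fold change -2.78 ± 0.50, edgeR adjusted p = 0.00471). A transcript annotated for nonsense-mediated decay, Cxcl16-202, held 42.49% to 93.63% of the gene's TPM with F/R/C, 47.87% to 64.05% with MyoD and 59.2% to 67.49% in MEF.

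Cxcl10, an interferon-inducible ligand of CXCR3, was a low gene: 0.126, 0.593 and 0.336 CPM with F/R/C, 0.716, 2.38 and 2.74 CPM with MyoD and 0.93, 1.25 and 0.461 CPM in MEF. It was called lower against MyoD (log2 fold change -2.46 ± 0.72, edgeR adjusted p = 0.03) and not against MEF (-1.32 ± 0.72, edgeR adjusted p = 0.178), where the libraries overlapped. The call against MyoD was lost without the second or the third MyoD library (edgeR adjusted p = 0.0767 and 0.0693) or without the first or the third F/R/C library (0.0854 and 0.0923), and without the second F/R/C library the log2 fold change was -3.06. That call was also lost without the third libraries of MEF and MyoD (-2.13, edgeR adjusted p = 0.0579). Its related ligand Cxcl9 was near 0.

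Csf1 (chr3:107741048-107760469, minus strand) was second to Cxcl12 among the ligands by mean TPM over all 9 libraries. It had 48.3, 102 and 55.0 CPM in F/R/C libraries, 388.8, 279.5 and 803.6 CPM in MyoD libraries and 517.7, 344.5 and 707.7 CPM in MEF libraries. Lowest were the 3 F/R/C libraries, and the third library was the highest in both other groups. With F/R/C it was 7.64-fold below MEF (log2 fold change -2.93 ± 0.50, edgeR adjusted p = 0.00271) and 7.17-fold lower than with MyoD (-2.84 ± 0.49, edgeR adjusted p = 0.00398). Il34, the other ligand of the CSF1 receptor, had 1.49 to 2.598 CPM with F/R/C, 2.51 to 7.07 CPM with MyoD and 2.186 to 3.34 CPM in MEF and was not called (edgeR adjusted p = 0.434 against MEF). The receptor Csf1r itself lay at 1.08 ± 0.40, 1.23 ± 1.04 and 1.28 ± 0.97 CPM in F/R/C, MyoD and MEF libraries (SD, n = 3 each).

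Among the interleukins, Il18, Il7 and Il17d were called lower with F/R/C in both comparisons, and Il15 against MyoD alone. Il18, an IL-1 family member that induces interferon gamma, had 0.462, 0.456 and 0.288 CPM with F/R/C, 1.66, 2.57 and 0.962 CPM with MyoD and 2.42, 2.25 and 2.81 CPM in MEF. Its libraries did not overlap between F/R/C and either other group (log2 fold change -2.61 ± 0.47 against MEF, edgeR adjusted p = 0.00345; -2.09 ± 0.46 against MyoD, edgeR adjusted p = 0.0102). Il17d, an IL-17 family member, had 0.546, 0.775 and 1.49 CPM with F/R/C, 3.71, 2.49 and 3.22 CPM with MyoD and 5.63, 4.59 and 4.71 CPM in MEF. It was 5.30-fold lower with F/R/C than in MEF (edgeR adjusted p = 0.00342) and 3.35-fold lower than with MyoD (edgeR adjusted p = 0.0142), and the second call was lost without the second F/R/C library (edgeR adjusted p = 0.0541).

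Il7, a survival factor of lymphocytes, had 0.504, 0.957 and 0.096 CPM with F/R/C, 3.13, 9.10 and 3.03 CPM with MyoD and 1.91, 9.86 and 3.55 CPM in MEF. All F/R/C libraries lay below the rest, and the second library was the highest in every group. In both comparisons the log2 fold change was -3.28 ± 0.91 (edgeR adjusted p = 0.0212 against MEF and 0.0239 against MyoD). The call against MEF was lost without the second MEF library (log2 fold change -2.43, edgeR adjusted p = 0.0699), the first F/R/C library (0.0673) or the third (0.0572), and that against MyoD without the second MyoD library (-2.58, 0.0749), the first F/R/C library (0.073) or the third (0.0635). Without the second F/R/C library the log2 fold changes were -4.05 and -4.04.

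Il15, which muscle and other cells present on its receptor chain to NK and T cells, had 0.923, 1.05 and 0.48 CPM with F/R/C, 1.57, 3.25 and 2.02 CPM with MyoD and 1.72, 2.42 and 1.61 CPM in MEF. It was called lower against MyoD (log2 fold change -1.47 ± 0.46, edgeR adjusted p = 0.0358). That call was lost in 8 of 18 alternatives, among them each fit without 1 F/R/C library (edgeR adjusted p = 0.0752, 0.06 and 0.0989), without the second or the third MyoD library (0.117 and 0.0517) and without the third libraries of MEF and MyoD (0.0561). Against MEF the log2 fold change was -1.22 ± 0.46 (edgeR adjusted p = 0.0623), and -1.24 with the replicate number as a block (edgeR adjusted p = 0.0374). DESeq2 called it against MEF as well (-1.19, adjusted p = 0.0392).

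**Figure D3:**
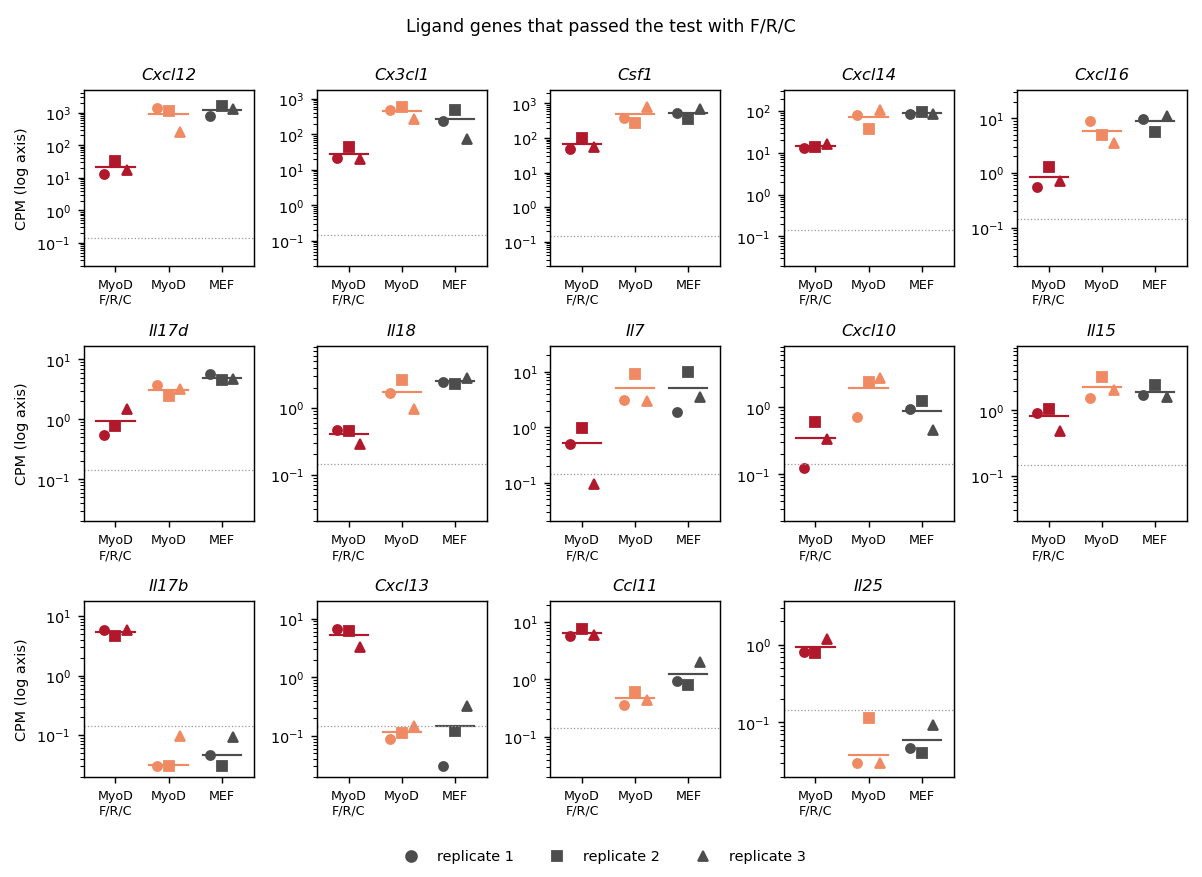
Level in CPM, on a log axis, of the 14 ligand genes called in either F/R/C comparison, with 1 point per library, its marker shape giving the replicate number, and a line at the group mean; values under 0.03 CPM are drawn at 0.03, and the dotted line at 0.144 CPM is the highest level of 3 counts in a library. The F/R/C points lie below all others for Cxcl12, Cx3cl1, Csf1, Cxcl14, Cxcl16, Il17d, Il18, Il7 and Il15, and above all others for Il17b, Cxcl13, Ccl11 and Il25; for Cxcl10 they overlap with MEF.

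Il17b, Cxcl13, Ccl11 and Il25 were called higher with F/R/C in both comparisons. Of these, Il17b, Cxcl13 and Il25 passed the filter on low counts only through the F/R/C libraries. They had to differ to be tested, so their calls and p-values are descriptions. Il17b and Il25 encode IL-17 family cytokines that share the receptor IL-17RB, and IL-25 is known as a signal of type 2 immunity. Il17b had 5.88, 4.70 and 5.81 CPM in F/R/C libraries, 0, 0 and 0.0962 CPM in MyoD libraries and 0.0465, 0 and 0.0923 CPM in MEF libraries. The F/R/C libraries held 364 counts in all, the MyoD libraries 2 and the MEF libraries 3. The ratio of counts, scaled for library size, was 123.9 against MEF (95% exact counting interval 42.07 to 603.7) and 190.2 against MyoD (52.29 to 1577). The edgeR adjusted p was 0.00135 against MEF and 0.00164 against MyoD; the fitted log2 fold changes of 6.77 and 7.29 moved to between 6.13 and 7.69 against MEF and between 6.67 and 9.997 against MyoD over the 18 alternatives, lowest without the second library and highest without the third libraries of MEF and MyoD. At a mean of 16.3 TPM, Il17b was among the 15 ligands that reached 10 TPM in a group.

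Il25 was lower, at 0.797, 0.775 and 1.2 CPM with F/R/C, 0, 0.113 and 0 CPM with MyoD and 0.0465, 0.0403 and 0.0923 CPM in MEF. Each F/R/C library held 17 to 25 counts and each other library 0 to 3. The 61 counts with F/R/C stood against 3 with MyoD, a ratio of 21.2 (95% exact counting interval 6.94 to 105.9), and 4 in MEF. The edgeR adjusted p was 0.00804 against MyoD and 0.00905 against MEF, where the log2 fold change was 3.85 ± 0.87. Without the second MyoD library the MyoD group had 0 counts, and the edgeR adjusted p was 0.00777; with a filter at an average of 1 CPM the gene was not tested.

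Cxcl13, the CXCR5 ligand that draws B cells into follicles, had 6.55, 6.11 and 3.27 CPM with F/R/C, 0.0895, 0.113 and 0.144 CPM with MyoD and 0, 0.121 and 0.323 CPM in MEF. Levels without F/R/C were near that of 3 counts, and all 3 F/R/C libraries were above them. Its log2 fold change was 5.12 ± 0.85 against MEF (edgeR adjusted p = 0.00255; 6.22 without the third MEF library and 4.51 without the first) and 5.46 ± 0.87 against MyoD (edgeR adjusted p = 0.00288). Markers of B cells, the cells that answer to it, summed to 0.546 to 0.912 CPM with F/R/C, 0.151 to 0.313 CPM with MyoD and 0.0403 to 0.369 CPM in MEF, and its receptor gene Cxcr5 had 1 count in all 9 libraries.

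Ccl11 encodes eotaxin, the CCR3 ligand that attracts eosinophils. It had 5.83, 7.66 and 6.05 CPM with F/R/C, 0.358, 0.604 and 0.433 CPM with MyoD and 0.93, 0.805 and 1.98 CPM in MEF. The 3 groups did not overlap, with MyoD the lowest and F/R/C the highest. With F/R/C the gene was 5.24-fold above MEF (log2 fold change 2.39 ± 0.44, edgeR adjusted p = 0.00384) and 13.8-fold higher than with MyoD (3.79 ± 0.47, edgeR adjusted p = 0.00125). Between MyoD and MEF it had an unadjusted p of 0.0127 and an edgeR adjusted p of 0.696.

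Markers of immune and other cells that also make such ligands are given beside these genes. Macrophage markers summed to 14.16 to 29.99 CPM with F/R/C, 10.01 to 32.04 CPM with MyoD and 6.642 to 22.47 CPM in MEF. Of the 13, 6 were tested and 2, Itgam and Cd68, were called higher against MEF (5.32 ± 0.55 and 1.38 ± 0.35 on the log2 scale, edgeR adjusted p = 0.00044 and 0.0154). Against MyoD, Itgam alone was called higher (3.25 ± 0.47, edgeR adjusted p = 0.00209). Mrc1 was not called, but its F/R/C libraries lay above all others (2.34 ± 0.91 against MEF). Csf1r, Cd14 and Lyz2 were not called and their libraries overlapped. Among the listed markers that were not tested, Ptprc, Adgre1, C1qa, C1qb and Tyrobp had 0 to 1 count in all over the F/R/C libraries, and Adgre1, C1qa and Tyrobp had 16, 18 and 15 counts over the MyoD libraries, all in the first. Markers of T and NK cells (7 of 8 found) summed to 3.373 to 6.337 CPM with F/R/C, 0.179 to 1.828 CPM with MyoD and 0.0461 to 0.326 CPM in MEF; most of it with F/R/C was Cd3g, which had 270 counts with F/R/C, 35 with MyoD and 0 in MEF, while Cd4 and Cd8a had 2 counts each with F/R/C. Endothelial markers summed to 8.643 to 13.72 CPM with F/R/C, 1.566 to 2.934 CPM with MyoD and 2.415 to 3.023 CPM in MEF, and the list split: Vwf was called higher (14.2-fold above MEF, edgeR adjusted p = 0.00272) and Tek lower (26.1-fold below MEF, edgeR adjusted p = 0.00179). For epithelial markers the sums were 3.399 to 5.33 CPM with F/R/C, 0 to 7.648 CPM with MyoD and 0.14 to 1.661 CPM in MEF. Of the 6, 3 were tested, and Cdh1 and Krt8 were called higher in both comparisons. Their log2 fold changes were 4.77 ± 0.98 and 7.2 ± 1.37 against MEF (edgeR adjusted p = 0.00616 and 0.00765). Against MyoD they were 5.16 ± 1.01 and 3.35 ± 0.94 (edgeR adjusted p = 0.00624 and 0.03295). Both needed the F/R/C libraries to pass the filter on low counts, so these calls are descriptions. Krt18 was not called with all libraries kept. Neutrophil markers came to at most 1.805 CPM with F/R/C, 1.611 CPM with MyoD and 0.604 CPM in MEF, and mast cell markers to 0 CPM with F/R/C and MyoD and at most 0.0923 CPM in MEF. S100a8, the 1 neutrophil marker of 6 that was tested, was called higher in both comparisons (3.42 ± 0.78 against MEF on the log2 scale, edgeR adjusted p = 0.00961). It needed the F/R/C libraries to pass the filter on low counts, so its calls are descriptions. The part of any of these cells in the ligand levels was not tested.

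The neutrophil-attracting CXC chemokines Cxcl1, Cxcl2, Cxcl3, Cxcl5 and Cxcl15 lie within a stretch of chromosome 5 and none was called. Cxcl1 had 40.0, 78.1 and 14.0 CPM with F/R/C, 72.2, 44.2 and 4.57 CPM with MyoD and 58.7, 49.2 and 24.6 CPM in MEF. Means were 44.0 ± 32.2 CPM with F/R/C, 40.3 ± 34.0 CPM with MyoD and 44.1 ± 17.6 CPM in MEF (SD, n = 3 each) and the ranges overlapped, so that no difference was detectable beside this spread (log2 fold change 0.00 ± 0.87 against MEF, with a sign that turned in 9 of 18 alternatives). Cxcl5 had 60.1, 84.0 and 14.0 CPM with F/R/C, 160.9, 91.5 and 9.43 CPM with MyoD and 206.9, 113.3 and 142.5 CPM in MEF (log2 fold change -1.55 ± 0.89 against MEF, edgeR adjusted p = 0.202). Cxcl1 and Cxcl5 were the 2 ligands of highest TPM in the first and second F/R/C libraries.

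Cxcl15, known in mice as lungkine, had 0.462, 3.60 and 0 CPM with F/R/C, 26.3, 18.9 and 0.625 CPM with MyoD and 49.0, 53.9 and 4.66 CPM in MEF. The F/R/C libraries lay below all MEF libraries but overlapped with MyoD, and the third library was the lowest in every group. Against MyoD the log2 fold change was -3.49 ± 1.59 (edgeR adjusted p = 0.121). Cxcl15 was called there with the replicate number as a block (-3.68, edgeR adjusted p = 0.012) and without the third libraries of MEF and MyoD (-4.06, 0.0212). The log2 fold change against MEF was -4.72 ± 1.68 (edgeR adjusted p = 0.0535), and the gene was called with the replicate number as a block (-5.31, edgeR adjusted p = 0.00288), without the third MEF library (0.0346), without the third MyoD library (0.0267), without the second F/R/C library (-7.20, 0.0375) and without the third libraries of both groups (0.00855). Against MEF it was also called by DESeq2 (adjusted p = 0.0203), in the edgeR 2-group fit (0.0411) and with genes of at least 1 count (0.041). Cxcl2 and Cxcl3 were low and were highest among F/R/C libraries in the second, at 3.92 and 1.87 CPM in the second F/R/C library, against 0.252 to 1.06 CPM in the other two. Without the second MyoD library, where the other 2 MyoD libraries had 0 counts, Cxcl2 was called higher against MyoD (edgeR adjusted p = 0.0273; 0.1355 with it). Cxcl2 was also called there with the replicate number as a block (3.57, edgeR adjusted p = 0.0192).

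The monocyte attractants Ccl2 and Ccl7, ligands of CCR2, had lower means with F/R/C but were not called. Ccl7 had 19.9, 20.7 and 8.12 CPM with F/R/C, 27.3, 54.3 and 13.7 CPM with MyoD and 34.6, 94.5 and 28.4 CPM in MEF. No F/R/C library overlapped with MEF (log2 fold change -1.69 ± 0.63, edgeR adjusted p = 0.0634), and the gene was called with the replicate number as a block (-1.59, edgeR adjusted p = 0.00403), without the third MEF library (0.0414), without the third MyoD library (0.0418) and without both (0.0231). With all libraries kept, DESeq2 called Ccl7 against MEF (adjusted p = 0.0228). Against MyoD, Ccl7 was called lower with the replicate number as a block (-0.84, edgeR adjusted p = 0.0445). Ccl2 had 18.2, 15.2 and 5.71 CPM with F/R/C, 12.2, 38.6 and 32.8 CPM with MyoD and 11.9, 45.7 and 44.4 CPM in MEF (log2 fold change -1.38 ± 0.63 against MEF, edgeR adjusted p = 0.117). The first MyoD and MEF libraries were within the F/R/C range, and the gene was called lower without the first MEF library (-1.84, edgeR adjusted p = 0.0396).

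Ccl8, a neighbour of both on chromosome 11 and of Ccl11, had 1.47, 0.866 and 1.44 CPM with F/R/C, 0.224, 0.264 and 0.144 CPM with MyoD and 0.0465, 0.0805 and 1.15 CPM in MEF. All F/R/C libraries were above all MyoD libraries, and the third MEF library was within the F/R/C range (log2 fold change 2.54 ± 1.01 against MyoD, edgeR adjusted p = 0.0819; 1.56 ± 0.95 against MEF, edgeR adjusted p = 0.227). Without the third MEF library it was called higher in both comparisons (2.46 against MyoD, edgeR adjusted p = 0.00975; 4.13 against MEF, edgeR adjusted p = 0.00418). Against MyoD it was also called by DESeq2 with all libraries kept (adjusted p = 0.0442) and in the edgeR 2-group fit (0.0107). Ccl8 needed the F/R/C libraries to pass the filter on low counts, so its calls and p-values are descriptions. Ccl9, a macrophage attractant known from mice, had 0.0839, 1.14 and 0.096 CPM with F/R/C, 3.45, 0.68 and 0.529 CPM with MyoD and 4.23, 0.765 and 2.49 CPM in MEF, and was called lower against MEF only without the second F/R/C library (edgeR adjusted p = 0.0302; 0.123 with it). Ccl5 and Ccl17, which attract T cells, stayed at or under 1.66 CPM in all libraries, and Ccl25 and Ccl28, ligands of CCR9 and CCR10, between 0.326 and 6.53 CPM; none of the 4 was called.

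Tslp, which acts through Crlf2 and the IL-7 receptor chain on dendritic and type 2 immune cells, had 3.73, 3.51 and 1.39 CPM with F/R/C, 66.1, 50.1 and 3.99 CPM with MyoD and 44.2, 26.8 and 0.738 CPM in MEF. The third MEF library lay below all F/R/C libraries and the third MyoD library just above them, while the other 4 were at least 26.8 CPM. The log2 fold change was -3.05 ± 1.30 against MEF (edgeR adjusted p = 0.0956) and -3.80 ± 1.34 against MyoD (edgeR adjusted p = 0.0567). It was called against MEF without the third MEF library (-3.67, edgeR adjusted p = 0.0198), and against MyoD without the third MEF library (0.0136) or without the third MyoD library (0.0263). With all libraries kept, DESeq2 called it in both comparisons (adjusted p = 0.0161 against MEF and 0.00226 against MyoD), and edgeR called it against MyoD in the 2-group fit (0.0201) and with genes of at least 1 count (0.0432). Without the third libraries of both groups the edgeR adjusted p was 0.000653 against MEF and 0.00041 against MyoD.

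IL-6 and LIF signal through the shared chain gp130, encoded by Il6st, and are known to act on muscle stem cells. Il6 had 2.10, 1.69 and 1.73 CPM with F/R/C, 0.179, 0.793 and 11.1 CPM with MyoD and 0, 1.05 and 31.1 CPM in MEF. The F/R/C libraries lay between the first 2 and the third library of the other groups. The log2 fold change was -2.54 ± 1.90 against MEF (edgeR adjusted p = 0.321) and -1.12 ± 1.83 against MyoD (edgeR adjusted p = 0.665), with the opposite sign without the third library of the group compared (1.73 and 1.88). Lif had 18.9, 32.8 and 10.4 CPM with F/R/C, 7.16, 63.1 and 127.2 CPM with MyoD and 7.67, 24.8 and 53.0 CPM in MEF, and was not called (edgeR adjusted p = 0.727 against MEF and 0.21 against MyoD). Its log2 fold change against MEF was -0.46 ± 0.94, and 0.30 without the third MEF library. Il11, of the same receptor family, had 1.09 to 3.05 CPM with F/R/C, 3.51 to 4.25 CPM with MyoD and 2.21 to 5.35 CPM in MEF.

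Il33, an alarmin of the IL-1 family kept in the nucleus and sensed through Il1rl1, had 28.4, 13.8 and 6.002 CPM with F/R/C, 20.2, 8.08 and 50.3 CPM with MyoD and 20.9, 13.1 and 49.9 CPM in MEF. Its libraries overlapped in all comparisons. In the third MEF and the third MyoD libraries, 7 of the 36 members (Csf1, Csf3, Cxcl13, Il6, Il17b, Il33 and Lif) were above both other libraries of the group in both groups, and 6 (Ccl7, Ccl17, Cx3cl1, Cxcl1, Cxcl15 and Tslp) were below both. Csf3, which encodes the neutrophil growth factor G-CSF, had 2.14, 4.01 and 0 CPM with F/R/C, 0.0448, 0.302 and 0.385 CPM with MyoD and 0, 0.241 and 0.784 CPM in MEF, and was not called (edgeR adjusted p = 0.207 against MEF). The third F/R/C library was the one of the group with 0 counts.

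**Figure D4:**
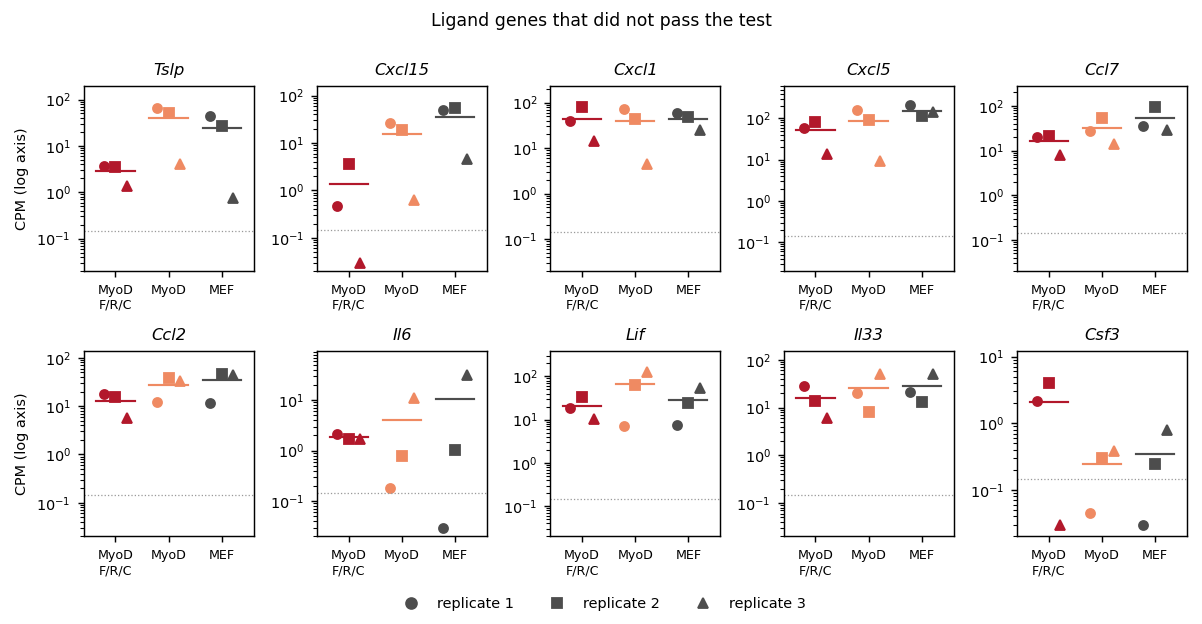
Level in CPM, on a log axis, of 10 ligand genes that were not called with F/R/C against either group, with 1 point per library, its marker shape giving the replicate number, and a line at the group mean; values under 0.03 CPM are drawn at 0.03, and the dotted line is at 0.144 CPM. The third MEF and the third MyoD libraries (triangles) are the lowest of their groups for Tslp, Cxcl15, Cxcl1 and Ccl7 and the highest for Il6, Lif, Il33 and Csf3.

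Some low ligands that did not pass the filter had nearly all their counts in F/R/C libraries. Ccl19, the CCR7 ligand of lymph nodes, had 49 counts with F/R/C, 5 with MyoD and 0 in MEF, or at least 16.7-fold higher with F/R/C than in the MEF group, against a floor of 3 counts over the group. Il12a, a subunit of IL-12 and IL-35, had 35 counts with F/R/C, 7 with MyoD and 0 in MEF (at least 11.9-fold higher than in MEF), and Il1b, the inflammatory IL-1 beta, had 27 with F/R/C, 1 with MyoD and 0 in MEF (at least 9.19-fold higher than in MEF). All 3 were called higher against MEF when genes with at least 1 count were tested (edgeR adjusted p = 0.0122, 0.00716 and 0.0162). They are named here because their counts lay with F/R/C, so these calls and p-values are descriptions. No other alternative called Il1b against MEF. Il19 had 26 counts with F/R/C, 2 with MyoD and 1 in MEF, of which the second F/R/C library gave most, and Il10, an anti-inflammatory cytokine, had 18 with F/R/C, 0 with MyoD and 1 in MEF. Ccl20 and Ccl6 lay the other way, with 4 and 3 counts with F/R/C, 41 and 33 with MyoD and 29 and 16 in MEF; for Ccl20 these came mostly from the third library of MyoD and of MEF and for Ccl6 mostly from the first.

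Between MyoD and MEF no member was called, and no gene of the 15714 was (0%; edgeR), against 13 genes with the replicate number as a block, 161 without the third MEF library and 199 without the third libraries of both groups; members called stayed at 0 in each. At an unadjusted p under 0.05 there was 1 member of 36 (Ccl11), or 2.78%, against 4.66% of all genes, and DESeq2 called 0 members. Libraries did not overlap for 3 members, Ccl11 and Il17d, which were lower with MyoD, and Ccl25, which was higher (8.33%, against 7.52% of all genes). Ccl25 had 3.58, 5.21 and 4.09 CPM with MyoD and 3.16, 3.30 and 2.91 CPM in MEF, a log2 fold change of 0.46 ± 0.33 (edgeR adjusted p = 1). The median log2 fold change of the 36 was -0.342 and that of all genes -0.00767.

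Some members share sequence or position with another gene, and their counts are uncertain for that reason. Ccl27a overlaps Il11ra1 on the opposite strand, which lay at 215.4, 165.3 and 225.1 CPM in F/R/C, MyoD and MEF libraries against 7.996, 4.91 and 5.43 CPM for Ccl27a, and near-identical copies of it exist as Ccl27b and Ccl27. Ccl25 overlaps Elavl1, and Il16, a ligand of CD4, overlaps Stard5 in the same way. The use of strand in the counting is not given in the sources used here, so that reads of such pairs cannot be told apart. Cxcl10 overlaps Art3, which had 2.59, 0.70 and 0.28 CPM in F/R/C, MyoD and MEF libraries, an order other than that of Cxcl10. On the opposite strand, Cxcl16 overlaps Zmynd15 (0.21, 0.50 and 0.77 CPM in the same order of groups) and Il7 overlaps Gm16685 (0.07, 0.44 and 0.56 CPM). Il18 overlaps Bco2 (0.10, 0.22 and 0.27 CPM). These genes were lowest with F/R/C, like the members they overlap, and their part in the members' counts was not tested. For Ccl27a the log2 fold change was 0.56 ± 0.44 against MEF (edgeR adjusted p = 0.342), and it was the ligand of highest level in the third F/R/C library, with 21.2% of the sum. Il16 had 1.97 to 13.3 CPM with F/R/C, 4.68 to 10.7 CPM with MyoD and 6.24 to 12.8 CPM in MEF.

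Receptors for these ligands were read from lists of related genes. Of 22 chemokine receptors and scavengers, 13 had under 10 counts in every library and 7 were tested. Cxcr4, the receptor of CXCL12, had 2.14, 3.97 and 3.17 CPM in F/R/C libraries, 0.0448, 0.227 and 0.289 CPM in MyoD libraries and 0, 0.0805 and 0.138 CPM in MEF libraries. It was the one gene of the list called higher with F/R/C in both comparisons (log2 fold change 5.30 ± 0.87 against MEF, edgeR adjusted p = 0.00243, and 6.06 without the third libraries of MEF and MyoD; 4.01 ± 0.79 against MyoD, edgeR adjusted p = 0.00629), where its ligand gene was the lowest. Cxcr4 passed the filter on low counts only through the F/R/C libraries, so its calls are descriptions. Ackr3, which binds and clears CXCL12, had 43.5 ± 17.5, 35.1 ± 28.1 and 44.8 ± 12.2 CPM in F/R/C, MyoD and MEF libraries (SD, n = 3 each) and was not called. Cxcr6, the receptor of CXCL16, had 0.252, 0.0456 and 0.096 CPM with F/R/C, 0.761, 0.642 and 34.9 CPM with MyoD and 0.651, 0.483 and 4.89 CPM in MEF; it was called lower against MyoD (edgeR adjusted p = 0.0318), with the third MyoD library far above the others. Its log2 fold change against MyoD was -6.45 with all libraries and -2.35 without the third libraries of MEF and MyoD (edgeR adjusted p = 0.0386), an alternative chosen for the listed genes after seeing the data. Cx3cr1, Cxcr3 and Cxcr5, receptors of CX3CL1, CXCL10 and CXCL13, had at most 4 counts in any group.

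Of 32 receptor chains for interleukins, colony stimulating factors and TNF, 28 were tested; 6 were called higher and 8 lower with F/R/C against MEF, and 4 higher and 5 lower against MyoD. The shares of all genes, to be read beside this and the next lists, were 19.5% higher and 18.1% lower against MEF and 17.8% and 16.1% against MyoD. The chains that bind IL-15 and share the common gamma chain rose. Il2rg, the common gamma chain, had 12.9, 15.4 and 14.6 CPM with F/R/C, 0.134, 1.17 and 1.25 CPM with MyoD and 0.093, 0.564 and 0.507 CPM in MEF (log2 fold change 5.17 ± 0.85 against MEF, edgeR adjusted p = 0.00242). Il2rb had 6.25, 9.76 and 8.45 CPM with F/R/C, 0.761, 0.982 and 1.11 CPM with MyoD and 0.698, 1.09 and 1.25 CPM in MEF (3.00 ± 0.37 against MEF, edgeR adjusted p = 0.000788), and Il15ra 8.69, 12.3 and 5.09 CPM with F/R/C, 4.03, 3.59 and 3.08 CPM with MyoD and 3.95, 2.90 and 2.91 CPM in MEF (1.42 ± 0.37, edgeR adjusted p = 0.0163). All F/R/C libraries lay above all others for the 3 chains. Without the third libraries of MEF and MyoD, Il15ra was no longer called against MyoD (edgeR adjusted p = 0.0646; 0.0267 with them). T and NK cells are known for these chains, and the sum of their markers given above was also higher with F/R/C. Most of that sum was Cd3g, the 1 marker of the list that was tested. Cd3g was called higher against MEF (edgeR adjusted p = 0.00702) and not against MyoD (0.0782). It needed the F/R/C libraries to pass the filter on low counts, so that call is a description. The part of such cells in these levels was not tested. Il1r2, the decoy receptor of IL-1, was 15.8-fold higher in F/R/C libraries than in MEF (edgeR adjusted p = 0.00549), at 1.9 ± 0.95 CPM with F/R/C, 0.095 ± 0.094 CPM with MyoD and 0.117 ± 0.023 CPM in MEF (SD, n = 3 each). Like Cxcr4, it passed the filter only through the F/R/C libraries, so its call is a description.

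Chains of receptors for gp130 cytokines, TSLP and TNF were among those called lower. Osmr, the oncostatin M receptor, had 51.1, 78.5 and 32.7 CPM with F/R/C, 260, 249 and 178 CPM with MyoD and 208, 324 and 450 CPM in MEF (log2 fold change -2.598 ± 0.39 against MEF, edgeR adjusted p = 0.00174). Crlf2, the TSLP receptor, had 5.08, 5.33 and 5.43 CPM with F/R/C, 13.4, 22.3 and 21.8 CPM with MyoD and 14.5, 24.3 and 20.9 CPM in MEF (-1.91 ± 0.28 against MEF, edgeR adjusted p = 0.0016), while Il7r, its partner, had at most 3 counts in any group. For both, the F/R/C libraries were the 3 lowest. Il6st was 2.42-fold lower and Tnfrsf1a 2.05-fold lower with F/R/C than in MEF (edgeR adjusted p = 0.0144 and 0.0067), and Tnfrsf1b, Csf2ra, Il13ra1 and Il1rl1 were the others called lower. The call of Il1rl1 was lost without the third libraries of MEF and MyoD (edgeR adjusted p = 0.0882; 0.0394 with them). Lifr, at 36.6 ± 14.1, 20.8 ± 6.34 and 36.7 ± 5.22 CPM in F/R/C, MyoD and MEF libraries, and Il1r1, at 126 ± 71.2, 80.2 ± 42.9 and 120 ± 28.7 CPM in the same order of groups (SD, n = 3 each), were not called.

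**Figure D5:**
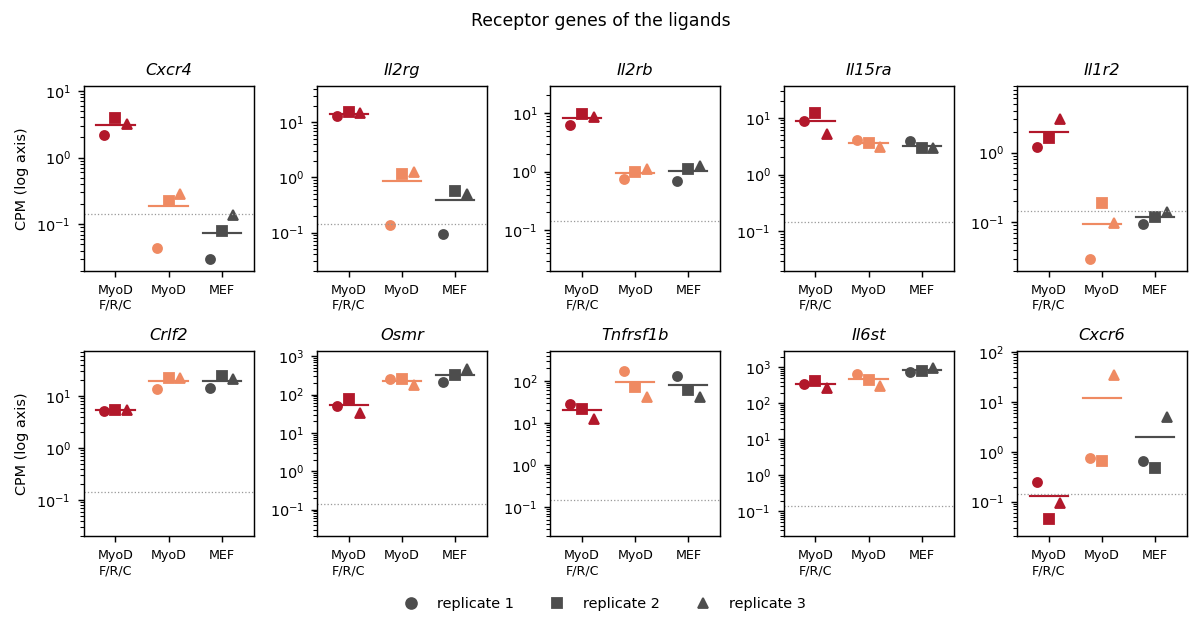
Level in CPM, on a log axis, of 10 receptor genes in MyoD F/R/C, MyoD and MEF libraries, with 1 point per library, its marker shape giving the replicate number, and a line at the group mean; values under 0.03 CPM are drawn at 0.03, and the dotted line is at 0.144 CPM. Cxcr4, Il2rg, Il2rb, Il15ra and Il1r2 have all F/R/C points above the rest, Crlf2, Osmr and Tnfrsf1b have them below, Il6st has them below MEF and within reach of MyoD, and for Cxcr6 the third MyoD library stands at 34.9 CPM.

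Of 15 related ligands and antagonists outside the naming rule, 12 were tested, of which 1 was called higher and 7 lower with F/R/C in each comparison. Mif, a cytokine with enzyme-like activity, was the one that rose, at 207, 252 and 335 CPM with F/R/C, 62.9, 55.1 and 71.6 CPM with MyoD and 99.8, 53.4 and 53.7 CPM in MEF (log2 fold change 1.94 ± 0.30 against MEF, edgeR adjusted p = 0.00191). Tnfsf12, which encodes TWEAK, had 8.90, 10.3 and 7.73 CPM with F/R/C, 36.1, 40.0 and 29.4 CPM with MyoD and 35.3, 50.8 and 46.1 CPM in MEF (-2.29 ± 0.22 against MEF, edgeR adjusted p = 0.00036). Kitl, the stem cell factor, was 8.32-fold lower and Ctf1, cardiotrophin 1, 7.39-fold lower than in MEF (edgeR adjusted p = 0.00578 and 0.00469). Il1rn, the IL-1 receptor antagonist, had 3.31, 6.61 and 1.2 CPM with F/R/C, 41.1, 8.08 and 722 CPM with MyoD and 32.8, 36.2 and 508 CPM in MEF (edgeR adjusted p = 0.0414 against MEF), and in both groups without F/R/C the third library was far the highest. Its log2 fold change against MEF was -5.69, and -3.17 without the third libraries of MEF and MyoD (edgeR adjusted p = 0.0143). Against MyoD it was -6.11, and -2.74 without them (edgeR adjusted p = 0.0254).

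Of 21 NF-kB subunits, inhibitors and upstream kinases, all tested, 2 were called higher and 4 lower against MEF, and 2 higher and 3 lower against MyoD. Tnfaip3, the inhibitor A20, had 44.0, 59.3 and 44.6 CPM with F/R/C, 5.37, 8.69 and 8.85 CPM with MyoD and 4.93, 7.33 and 4.61 CPM in MEF (log2 fold change 3.13 ± 0.30 against MEF, edgeR adjusted p = 0.000355). The adaptor Myd88 was 2.44-fold lower than in MEF (edgeR adjusted p = 0.00416), while the subunit Rela, at 74.7 ± 8.82, 95.7 ± 10.7 and 81.5 ± 14.2 CPM in F/R/C, MyoD and MEF libraries, and the inhibitor Nfkbia, at 38.3 ± 4.99, 33.0 ± 7.32 and 31.9 ± 3.21 CPM in the same order of groups (SD, n = 3 each), were not called. Of 12 NF-kB responsive genes that are no ligands, 11 were tested and 3 called lower in each comparison, among them the adhesion molecules Vcam1 (9.51-fold lower than in MEF, edgeR adjusted p = 0.000782) and Icam1 (7.48-fold, 0.00676). None was called higher. Of 16 JAK-STAT genes, 15 were tested, with 6 lower against MEF, among them Cish and Jak1, and 5 lower against MyoD, and Stat3 and Socs3 not called. Of 10 factors that act on AU-rich elements, through which many cytokine mRNAs are degraded, none was called in either comparison; Zfp36, tristetraprolin, had 155 ± 78.4 CPM with F/R/C, 377 ± 302 CPM with MyoD and 406 ± 197 CPM in MEF (SD, n = 3 each; edgeR adjusted p = 0.105 against MEF).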

How the data were processed

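Polyadenylated RNA was sequenced from 9 libraries with a TruSeq Stranded mRNA kit, as the labels' protocols state. In the submitters' processing notes, bcl2fastq 2.19, Trimmomatic 0.36, kallisto 0.44 and edgeR 3.28 are named as the authors' tools and GRCm38.p6 as the build; neither the annotation release nor the use of strand is given in the sources used here. For each of 121843 transcripts the authors deposited an estimated count, or expected count, beside a TPM value, per the file headers.

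The GENCODE M21 annotation of GRCm38 held 121104 of these transcripts; the other 739 took 0.2% to 0.494% of a library's counts and were left out. Deposited estimated counts were summed per gene and rounded, and deposited TPM values were summed per gene. The two-sided quasi-likelihood F test of edgeR 4.0.16 (R 4.3.3) was run with TMM scaling and 1 mean per group, after filterByExpr at its limits of 10 counts and 15 in total. SE is the absolute log2 fold change over the square root of F. CPM uses TMM effective library sizes. The fit was tested on simulated data.

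The ligand genes and lists were chosen with earlier results of these data known. Named were all members called, the 8 of highest mean TPM, and Il6, Il15, Lif, Csf1, Ccl2, Cxcl12, Cx3cl1, Il1b and Tnf; from each pathway list, up to 4 called genes of smallest adjusted p in any comparison and up to 2 others of high TPM. Other genes and members were named after their values were seen, to account for every member, for ligands' receptors and for markers.

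Libraries of equal replicate number deviated together from their group means in MEF and MyoD (r = 0.632 to 0.729) and in F/R/C and MEF (r = 0.101 to 0.151), over the 0.1 taken for pairing in each pair; in F/R/C and MyoD they did so at 0.0837, 0.119 and 0.164, which is not over it in each. Alternatives were DESeq2 1.42.0, other scalings and filters, 2-group fits, counts scaled from TPM, the replicate number as a block, and leaving out libraries.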

Additional observations from a re-analysis of the deposited data

How the results depend on the processing

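Over 18 alternatives, Cxcl12, Cxcl14, Cxcl16, Csf1, Cx3cl1, Il18, Il17b, Cxcl13 and Ccl11 were called in both F/R/C comparisons in all of them, Il17d against MEF in all of them, and Il25 in all 17 in which it was tested. Il17b, Cxcl13 and Il25 passed the main filter only through the F/R/C libraries, so their calls remain descriptions. Among values of single genes, 703 kept their direction and side of the threshold, 29 came to pass it, 20 ceased to and 23 turned in sign. The cause of these changes was not tested. Members called numbered 12 to 18 against MEF, 11 to 16 against MyoD and 0 to 0 for MyoD against MEF when 1 library was left out, and 16, 16 and 0 with DESeq2. With the replicate number as a block they were 15 (4 higher, 11 lower) against MEF, 19 (5 higher, 14 lower) against MyoD, where the numbers are not taken as pairs but every library correlated best with its own number, and 0 for MyoD against MEF. The calls that the block adds against MEF are given above, and it ended no call there. Against MyoD it added Ccl7, Ccl17, Cxcl2 and Cxcl15, given above, and Tslp (edgeR adjusted p = 0.0185).

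For MyoD against MEF, all genes called were 0, but 171 with DESeq2, 11 with all genes of at least 1 count, 13 with the replicate number as a block, 0 to 161 when 1 library was left out (161 without the third MEF library) and 199 without the third libraries of both groups. Genes called with F/R/C numbered 4372 to 6362 against MEF and 3620 to 5493 against MyoD when 1 library was left out.

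Signs turned for genes not called. Cxcl1 against MEF (log2 fold change near 0) was 0.0388 with DESeq2 and with its size factors, 0.0161 with genes of at least 1 count, 0.0240 in the 2-group fit and -0.712 to 0.418 with 1 library left out; against MyoD it was -0.0659 with total counts, -0.407 without the third libraries of both groups and -0.580 to 0.848 with 1 left out. Cxcl5 against MyoD was -1.27 to 0.0578 with 1 left out. Il6 was 0.547 with the block and 1.83 without the third libraries of both groups against MEF (-3.19 to 1.73 with 1 left out), and 1.38 and 1.90 against MyoD (-1.70 to 1.88). Lif against MEF was 0.196 and 0.395 (-0.966 to 0.3).

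Depth limits the low ligands: a count of 0 allows up to 0.113 to 0.144 CPM, and of the 40 genes near 0, none passed the filter of the test. Il10, 1 of them, was called higher against MyoD when genes of at least 1 count were tested (edgeR adjusted p = 0.0281). Nearly all its counts lay in the F/R/C libraries, so that call is a description.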
